A study of Mus musculus with 4 samples.

Results

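The genes described here encode 7 families of enzymes that turn foreign and endogenous compounds into less reactive or more water-soluble products. They were chosen by symbol alone, without regard to measured values: cytosolic glutathione transferases (Gst), UDP-glucuronosyltransferases (Ugt), sulfotransferases (Sult), flavin monooxygenases (Fmo), aldehyde dehydrogenases (Aldh), alcohol dehydrogenases (Adh) and carboxylesterases (Ces). Each gene is represented by a probe set that names this gene only, and by the brightest one where there were several. This gave 94 genes of the 19938 in the data, namely 19 Gst, 10 Ugt, 16 Sult, 5 Fmo, 21 Aldh, 7 Adh and 16 Ces genes, of which 1, Adh6-ps1, is annotated as a pseudogene.

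RNA of the lining of the nasal septum and turbinates was hybridised to 4 Affymetrix mouse gene arrays, 1 for each of wild type given PBS, wild type given flagellin, Duox2-/- given PBS and Duox2-/- given flagellin. All mice were 8 weeks old and of the strain that the labels spell C56BL/6, 25 ul went into each nostril, the flagellin solution held 5 ug/ml and tissue was taken after 4 h. Flagellin is the protein of bacterial flagella, and Duox2 is an enzyme of epithelial cells that makes hydrogen peroxide. The sources used here do not state how the Duox2 allele was made, or whether an array holds 1 mouse or a pool.

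The conjugating enzymes among these families can complete the detoxification that cytochrome P450 oxidation begins. Glutathione transferases join reactive electrophiles to glutathione, UDP-glucuronosyltransferases add glucuronic acid and sulfotransferases add sulfate, while alcohol and aldehyde dehydrogenases oxidise alcohols to aldehydes and aldehydes to acids. Flavin monooxygenases oxidise nitrogen and sulfur atoms, and carboxylesterases split esters. The nasal mucosa, and the supporting cells and Bowman glands of its olfactory part, are known as sites rich in such enzymes, which act on inhaled chemicals and on odorants.

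Values are log2 signals made by the authors with RMA. With 1 array a group there is no spread between replicates, so a difference between single arrays is given as a value with no p-value. The median log2 value of the arrays lay between 6.48 and 6.56, and the interquartile range between 2.43 and 2.79, with the narrower ranges in the arrays labelled Duox2-/-. A gene counted as above the floor when its 4-array mean was at least 6.52, the median over the whole table, as for 11372 of 19938 genes. Duox2 itself was dim and not lower in the arrays labelled Duox2-/- (log2 values of 4.95 and 5.12 in wild type and 5.23 and 5.504 in those labelled Duox2-/-, PBS before flagellin). The sources used here do not state whether its probe set covers the altered stretch, so the genotype rests on the labels and the arrays are called by them. Some markers of the labelled tissue were bright in every array. The olfactory neuron gene Omp lay between 11.85 and 12.16, and the supporting-cell gene Cyp2g1 between 12.08 and 12.35. The secretory gene Bpifa1 lay between 12.53 and 12.73. Others were not: the secretory gene Scgb1a1 lay between 3.23 and 4.30. The gland gene Bpifb9a had 5.47 in wild type given PBS and 12.24 in the array labelled Duox2-/- and given PBS. The array labelled Duox2-/- and given PBS stood apart in tooth markers, whose mean was 7.13 there and between 4.46 and 5.24 in the others. The genotype difference after flagellin does not use that array, whereas the additive fit and the counts over all 4 arrays described below do.

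The promoters of 5 of the enzyme genes are shown as a description. Gsto1, Gstp1 and Adh7 had the low values described below in the arrays labelled Duox2-/-, as had Aldh3a1, for which no promoter entry was at hand. Gsta3 and Gstm5 were picked from the genes that fell in those arrays because their window held the core of the antioxidant response element. Each sequence is the 250 bases just before an annotated start, 5′ to 3′ on the strand of the gene, from RefSeq on GRCm38.p6. Capitals mark matches to TGACNNNGC, the antioxidant response element core, or GCGTG, the xenobiotic response element core, each searched on both strands.
Gsto1, chr19:47854723-47854972, plus strand: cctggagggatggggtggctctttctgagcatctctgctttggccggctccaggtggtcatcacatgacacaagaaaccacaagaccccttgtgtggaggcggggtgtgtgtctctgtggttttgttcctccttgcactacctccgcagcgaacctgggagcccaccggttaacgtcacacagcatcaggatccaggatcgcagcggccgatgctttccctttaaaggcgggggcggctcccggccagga
Gstp1, chr19:4037913-4038162, minus strand: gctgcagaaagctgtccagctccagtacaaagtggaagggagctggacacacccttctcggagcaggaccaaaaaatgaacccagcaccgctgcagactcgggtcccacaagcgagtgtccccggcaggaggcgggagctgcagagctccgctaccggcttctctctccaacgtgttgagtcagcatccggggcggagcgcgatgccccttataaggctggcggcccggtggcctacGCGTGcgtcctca
Adh7, chr3:138217523-138217772, plus strand: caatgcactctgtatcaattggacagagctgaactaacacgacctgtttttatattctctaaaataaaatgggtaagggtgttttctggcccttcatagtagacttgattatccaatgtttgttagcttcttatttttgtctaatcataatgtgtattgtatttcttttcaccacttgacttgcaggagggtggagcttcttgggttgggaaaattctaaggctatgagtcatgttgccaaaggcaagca
Gsta3, chr1:21240335-21240584, plus strand: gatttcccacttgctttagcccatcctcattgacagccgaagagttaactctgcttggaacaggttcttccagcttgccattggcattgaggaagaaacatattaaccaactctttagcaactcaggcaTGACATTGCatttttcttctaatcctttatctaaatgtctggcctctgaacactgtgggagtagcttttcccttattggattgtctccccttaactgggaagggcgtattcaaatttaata
Gstm5, chr3:107895604-107895853, plus strand: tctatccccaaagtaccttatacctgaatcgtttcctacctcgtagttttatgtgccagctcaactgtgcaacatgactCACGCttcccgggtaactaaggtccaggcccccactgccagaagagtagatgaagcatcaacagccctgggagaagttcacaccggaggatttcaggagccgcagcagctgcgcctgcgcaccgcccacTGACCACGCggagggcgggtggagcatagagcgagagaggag

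In Gsta3 the capitals are TGACATTGC, 121 to 113 bases before the start. Gstm5 held TGACCACGC 42 to 34 bases before the start, whose last bases are also a GCGTG match on the other strand, and a separate GCGTG match on the other strand 171 to 167 bases before the start. Gstp1 held GCGTG 13 to 9 bases before the start, and the windows of Gsto1 and Adh7 held neither run of letters. The table of promoters had an entry for 77 of the 94 genes, with 93 windows in all. TGACNNNGC was in 6 of these 93 windows (6.45%) and in 3338 of 32851 windows of all genes (10.2%). GCGTG was in 14 of the 93 (15.1%) and in 28.2% of all windows. Of the 14 genes that fell in the arrays labelled Duox2-/-, described below, 10 had an entry, with 11 windows, and each run of letters was in 2 of the 11 (18.2%). A match describes letters and shows no binding.

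Of the 94 genes, 49 were above the floor: 14 of 19 Gst, 5 of 16 Sult, 3 of 5 Fmo, 19 of 21 Aldh, 3 of 7 Adh, 5 of 16 Ces and none of 10 Ugt genes. The 45 others had means between 2.37 and 6.49. Probe sets differ in affinity, so the level of one gene is not set against that of another below, and values in the 4 arrays follow the order wild-type PBS, wild-type flagellin, labelled Duox2-/- PBS and labelled Duox2-/- flagellin.

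**Figure D1:**
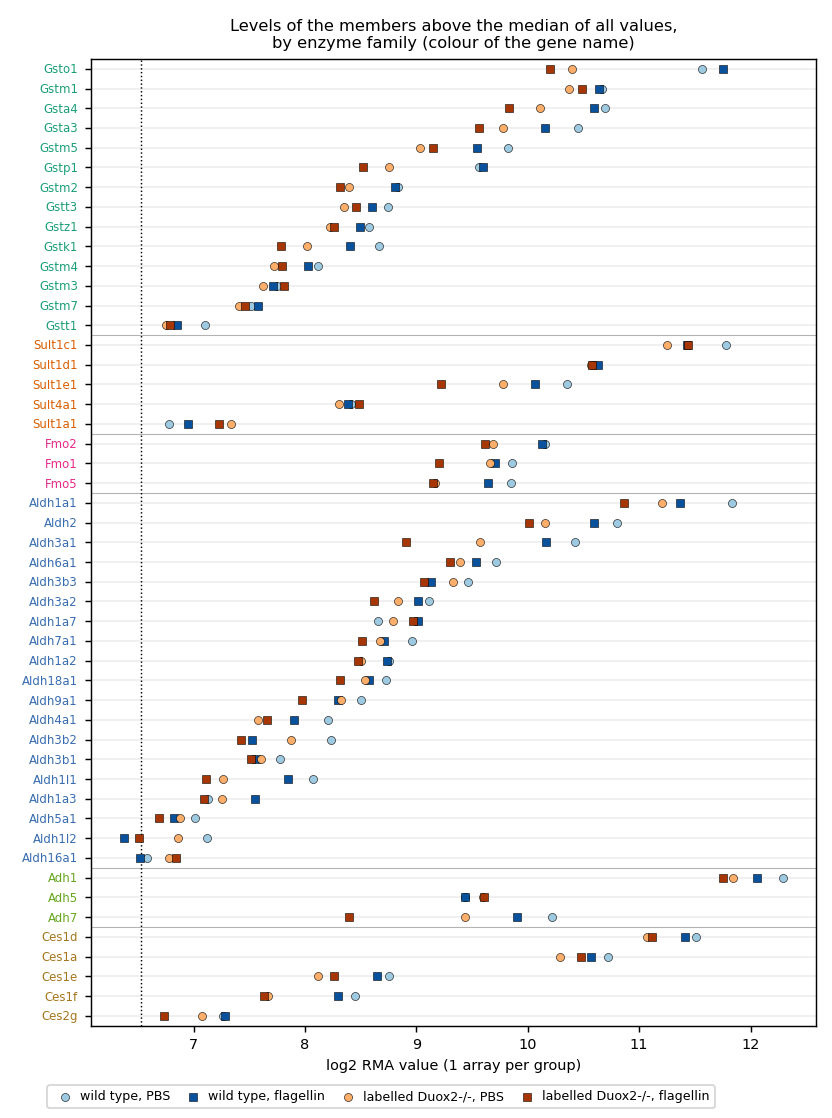
log2 RMA value (x axis) of the 49 enzyme genes above the floor in each of the 4 arrays, grouped by family (colour of the gene name); the dotted line is the floor of 6.52. Circles are PBS and squares flagellin arrays, blue wild type and orange labelled Duox2-/-; for Gsto1, Gstp1, Aldh3a1 and Adh7 both orange points lie left of both blue ones.

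Comparing Duox2-/- with wild type asks how the enzymes differ with the oxidase. Genes of 6 families were lower in the arrays labelled Duox2-/-, led by Gsto1, Adh7, Aldh3a1 and Gstp1. Under PBS, Gsto1 was at 44.3% of its wild-type signal, Aldh3a1 at 55.4%, Gstp1 at 56.9% and Adh7 at 58.0%. After flagellin the same 4 genes were at 34.1%, 41.8%, 47.4% and 35.1%. These 4 of the 49 genes were at least 2-fold lower after flagellin, where 1.29% of all 11372 genes were. Under PBS 1 of the 49, Gsto1, was at least 2-fold lower, where 0.176% of all genes were, and 0 of the 49 were at least 2-fold higher under PBS (0.598% of all genes) or after flagellin (0.193%). At 1.5-fold, 14 were lower under PBS (1.89%) and 11 after flagellin (6.13%). Without the floor, 2 of the 94 genes were at least 2-fold lower under PBS (0.226% of all 19938 genes) and 5 after flagellin (1.18%), the addition being Adh6a each time.

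The median log2 difference of the 49 genes was -0.35 under PBS and -0.26 after flagellin, where that of all genes above the floor was -0.05 and -0.14. Under PBS 44 of the 49 were below 0 (60.7% of all genes), and after flagellin 42 were (70.1%). In 35 of the 49 both arrays labelled Duox2-/- lay below both wild-type arrays, which held for 41.6% of all genes, and in 3 they lay above, which held for 14.9%. Over all 94 genes, dim ones included, the medians were -0.14 under PBS and -0.06 after flagellin, against 0.04 and 0.01 over all 19938. After cyclic loess between arrays the median of all genes after flagellin moved from -0.14 to -0.03, and that of the enzyme genes to -0.15, with 35 of 49 below 0.

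**Figure D2:**
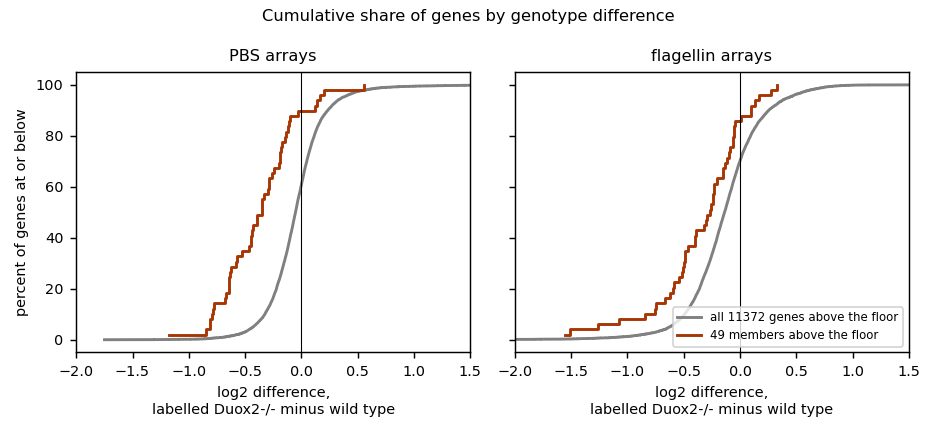
Cumulative percent of genes (y axis) at or below each log2 difference, labelled Duox2-/- minus wild type (x axis, drawn from -2 to 1.5), for PBS arrays (left) and flagellin arrays (right). The curve of the 49 enzyme genes lies left of that of all 11372 genes above the floor, with medians of -0.35 against -0.05 and -0.26 against -0.14.

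Brighter genes held the larger differences. The 16 enzyme genes with a mean of at least 9.5 had a median difference of -0.49 under PBS and -0.50 after flagellin, where all 909 genes of that level had -0.05 and -0.17. The 19 genes between 8 and 9.5 had medians of -0.35 and -0.32, against -0.07 and -0.198 in 3870 genes. The 14 between the floor and 8 had -0.18 and -0.11, against -0.04 and -0.09. The 45 dim genes had medians of 0.09 and 0.16, and all 8566 dim genes had 0.21 and 0.29, so the difference had another sign below the floor for the enzyme genes as for all genes.

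An additive model with a term for treatment and a term for genotype was fitted with limma to all 11372 genes above the floor. It takes the departure from additivity as its error, so its p-values measure that departure in these 4 arrays and not the spread between mice. At a Benjamini-Hochberg adjusted p of 0.05, 14 of the 49 enzyme genes fell in the arrays labelled Duox2-/- and none rose, where 2.60% of all genes fell and 1.64% rose. By family the 14 were 6 of 14 Gst, 4 of 19 Aldh and 1 each of 5 Sult, 3 Fmo, 3 Adh and 5 Ces genes. An unadjusted p under 0.05 was found for 27 of the 49 and for 22.2% of all genes. The scaling of the arrays bears on this count. After cyclic loess 3 of the 14, Aldh3a1, Gsto1 and Gstp1, stayed past the threshold, where 0.299% of all genes fell and 0.273% rose, and the other 11 had adjusted p-values from limma between 0.0534 and 0.157. After median centring 17 of 49 enzyme genes fell, the additions being Ces1e, Fmo2 and Gstm2, where 3.33% of all genes fell and 0.818% rose.

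**Figure D3:**
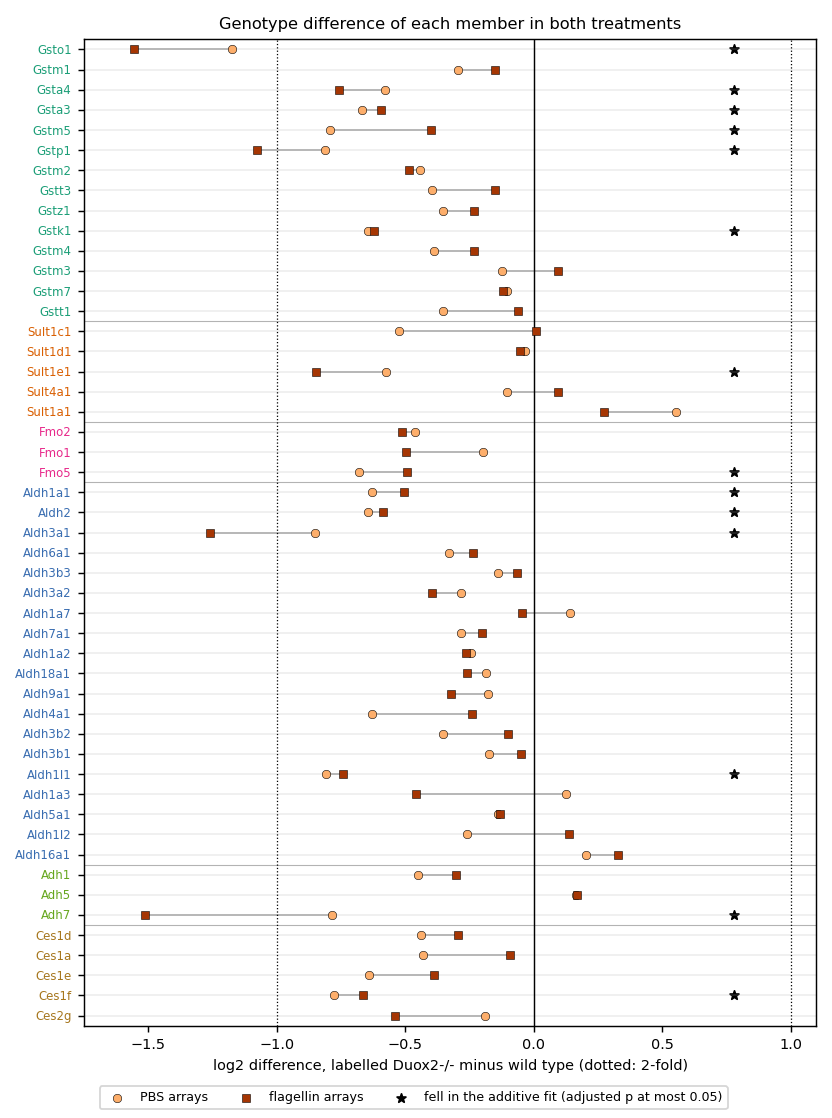
log2 difference, labelled Duox2-/- minus wild type (x axis; dotted lines at 2-fold), of the 49 enzyme genes above the floor, with circles for PBS and squares for flagellin arrays. Stars mark the 14 genes that fell in the additive fit; Gsto1 and Adh7 reach -1.55 and -1.51 after flagellin.

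Under PBS 14 of 14 glutathione transferases above the floor were lower in the array labelled Duox2-/-, with a median of -0.42. After flagellin 13 of 14 were, with a median of -0.32. Gsto1, an omega-class enzyme that reduces dehydroascorbate and methylated arsenic, had log2 values of 11.57, 11.75, 10.39 and 10.20. The wild-type values and those of the arrays labelled Duox2-/- do not overlap, and Gsto1 fell by 1.36 on the log2 scale (SE 0.138, limma adjusted p = 0.00311). Gsto2, its neighbour on chromosome 19, was dim, with values of 6.18, 6.25, 6.25 and 6.14 that differ little between the arrays.

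Gstp1, of the pi class, conjugates small electrophiles such as acrolein and binds stress kinases. Its values were 9.56, 9.60, 8.75 and 8.52. It fell by 0.95 (SE 0.130, limma adjusted p = 0.00926), with wild-type arrays above both others. A pair of probe sets that name both Gstp1 and Gstp2, left out of the gene counts, had values of 7.71, 7.75, 7.04 and 6.63 and of 7.74, 7.83, 7.09 and 6.55, lower in the same arrays. Gstp1 and Gstp2 are near-identical copies, so how the signal divides between them is uncertain.

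Both alpha-class genes with a probe set of their own fell. Gsta4, which conjugates the lipid peroxidation product 4-hydroxynonenal, had values of 10.69, 10.59, 10.11 and 9.83 (a fall of 0.67, SE 0.127, limma adjusted p = 0.0280). Gsta3 had values of 10.45, 10.15, 9.78 and 9.56 (a fall of 0.63, SE 0.124, limma adjusted p = 0.0306). The brightest of the 4 probe sets shared by Gsta1, Gsta2 and related predicted genes, which cannot be told apart on this array, had 8.77, 8.68, 7.94 and 7.99. In all of these the wild-type pair of arrays lay above the pair labelled Duox2-/-.

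Gstk1, the kappa-class enzyme of mitochondria and peroxisomes, had values of 8.67, 8.40, 8.02 and 7.78 and fell by 0.63 (SE 0.123, limma adjusted p = 0.0298). The mu class was divided. Gstm5 had values of 9.82, 9.55, 9.03 and 9.15 and fell by 0.60 (SE 0.139, limma adjusted p = 0.0472). Gstm2, at 8.84, 8.80, 8.39 and 8.32, was lower by a log2 shift of -0.46 that missed the threshold (limma adjusted p = 0.0680). Gstm1 had values of 10.67, 10.64, 10.37 and 10.48, a shift of -0.22. Gstm3 had 7.75, 7.71, 7.63 and 7.81, with overlapping groups, and its other probe set was dimmer at 5.69, 5.99, 6.22 and 6.25. The difference was -0.12 and 0.53 for these probe sets under PBS and 0.09 and 0.26 after flagellin. Genes of this class lie side by side on chromosome 3 and resemble each other, so signal may be shared between their probe sets. The remaining 5 genes, Gstm4, Gstm7, Gstt1, Gstt3 and Gstz1, had shifts between -0.31 (Gstm4) and -0.11 (Gstm7), and none passed the limma test.

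No UDP-glucuronosyltransferase with a probe set of its own was above the floor. Ugt2b37 had 5.02, 5.16, 5.30 and 5.33 and Ugt2b34 had 4.43, 4.12, 4.46 and 4.47, and all 10 means lay at or under 5.20. Their median difference between genotypes was 0.19 under PBS and 0.30 after flagellin, beside 0.21 and 0.29 over all dim genes. Brighter signal came from probe sets that several of these genes share. The one common to Ugt2a1 and Ugt2a2, which encode the olfactory enzyme that glucuronidates odorants, had 12.62, 12.70, 12.62 and 12.69, almost the same in the 4 arrays. The one common to the 8 Ugt1a genes, which share their last exons, had 8.29, 8.05, 7.83 and 7.57, lower by -0.46 under PBS and -0.47 after flagellin in the arrays labelled Duox2-/-.

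Among the sulfotransferases the arrays differed gene by gene. Sult1e1, which inactivates oestrogens by sulfation, had values of 10.36, 10.07, 9.78 and 9.22 and fell by 0.71 (SE 0.131, limma adjusted p = 0.0264). Sult1d1, which acts on catecholamines and other phenols, had 10.60, 10.63, 10.56 and 10.58, a spread far smaller than that of Sult1e1 although both lie in one cluster on chromosome 5. Sult4a1, best known from brain, had 8.41, 8.39, 8.31 and 8.48, with overlapping groups. Sult1c1 had 11.78, 11.43, 11.25 and 11.44, with the wild-type PBS array above the other three. Sult1a1, a phenol sulfotransferase, had the highest genotype shift of the 49 genes, with 6.78, 6.95, 7.33 and 7.23; it was higher by 0.41 without passing the threshold (limma adjusted p = 0.106). The family median after flagellin was 0.01, and its sign turned to -0.05 under median centring.

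The 3 flavin monooxygenases above the floor were lower in both treatments, with medians of -0.46 and -0.497. Fmo5, which can also act as a Baeyer-Villiger monooxygenase, had values of 9.85, 9.64, 9.17 and 9.15 and fell by 0.59 (SE 0.127, limma adjusted p = 0.0379). Fmo2, the form best known from lung, had 10.15, 10.13, 9.69 and 9.62 and was lower by a shift of -0.49 short of the threshold (limma adjusted p = 0.0583). Fmo1 had 9.86, 9.70, 9.66 and 9.21.

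Of the 19 aldehyde dehydrogenases above the floor 4 fell, and the medians were -0.26 under PBS and -0.24 after flagellin. Aldh3a1, which oxidises aromatic and lipid-derived aldehydes and is abundant in epithelia exposed to light and air, had values of 10.42, 10.16, 9.57 and 8.91. Its groups do not overlap, and it fell by 1.06 (SE 0.140, limma adjusted p = 0.00866). Aldh1l1, which oxidises formyltetrahydrofolate, had 8.07, 7.85, 7.26 and 7.11 and fell by 0.78 (SE 0.124, limma adjusted p = 0.0164).

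Aldh2, the mitochondrial enzyme that clears acetaldehyde, had 10.80, 10.60, 10.15 and 10.01 and fell by 0.62 (SE 0.124, limma adjusted p = 0.0328). Aldh1a1, which makes retinoic acid from retinal, had 11.83, 11.37, 11.20 and 10.86 and fell by 0.57 (SE 0.125, limma adjusted p = 0.0406). The other retinal dehydrogenases did not pass the threshold, and whether their shifts differ from that of Aldh1a1 was not tested. Aldh1a2 had 8.75, 8.74, 8.51 and 8.47, a shift of -0.25, with both arrays labelled Duox2-/- below both wild-type arrays. Aldh1a3 had 7.13, 7.55, 7.26 and 7.09, with the wild-type flagellin array above the rest.

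Aldh1a7, the neighbour and close copy of Aldh1a1 on chromosome 19, had 8.65, 9.02, 8.79 and 8.97, with overlapping genotypes. Aldh4a1, of proline breakdown, had 8.21, 7.90, 7.58 and 7.66, and its shift of -0.43 did not pass (limma adjusted p = 0.107). Aldh16a1 had 6.58, 6.52, 6.78 and 6.84 and was higher in both arrays labelled Duox2-/-, without passing the test (limma adjusted p = 0.251). Aldh3b2 and Aldh3b3, which act on lipid aldehydes, share a further probe set, left out of the counts, with 8.81, 8.02, 8.03 and 7.22. The probe sets used for these genes had genotype shifts of -0.23 and -0.10. Further probe sets of Aldh3b3 alone were dimmer and of opposite sign. Their differences were -0.75 and 0.66 under PBS and -1.11 and 0.53 after flagellin. The remaining 8 genes of the family had shifts between -0.34 (Aldh3a2, which oxidises fatty aldehydes) and -0.063 (Aldh1l2, lower by -0.26 under PBS and higher by 0.14 after flagellin), and none passed the limma test.

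Of the alcohol dehydrogenases, Adh7, the class IV enzyme of epithelia that oxidises retinol and ethanol, had values of 10.22, 9.91, 9.43 and 8.39. Adh7 fell by 1.15 (SE 0.171, limma adjusted p = 0.0123), and its difference was -0.79 under PBS and -1.51 after flagellin. Adh1, the class I enzyme, had 12.30, 12.06, 11.84 and 11.76, a shift of -0.38 (limma adjusted p = 0.117). Adh5, the class III enzyme that clears formaldehyde bound to glutathione, was higher by 0.17 in both treatments, with 9.43, 9.44, 9.60 and 9.61, and did not pass (limma adjusted p = 0.458). Adh6a lay under the floor by its mean of 6.03, yet had the lowest genotype difference of all 94 genes, with 6.68, 7.36, 5.15 and 4.93. When the floor was dropped, Adh6a passed in the limma fit over 19938 genes with a fall of 1.98 (SE 0.198, limma adjusted p = 0.00261). These 7 genes lie next to each other on chromosome 3, and neighbours differed: Adh7 and Adh6a were lower and Adh5 was not.

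The 5 carboxylesterases above the floor were all lower in both treatments. Ces1f, which hydrolyses lipid esters and drugs, had 8.44, 8.30, 7.67 and 7.63 and fell by 0.72 (SE 0.125, limma adjusted p = 0.0217). Ces1e, with 8.76, 8.65, 8.11 and 8.26, just missed the threshold at a shift of -0.52 (limma adjusted p = 0.0578). Ces1d had 11.51, 11.41, 11.07 and 11.11 and Ces1a had 10.72, 10.57, 10.29 and 10.48. Ces2g had 7.27, 7.28, 7.08 and 6.74, lowest in the array labelled Duox2-/- and given flagellin. The Ces1 genes arose by duplication and stand in a row on chromosome 8, so their probe sets may share signal.

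Comparing flagellin with PBS asks whether the enzymes responded to the bacterial protein within 4 h. No enzyme gene above the floor passed the additive test for flagellin: 0 of 49 rose and 0 fell, where 0.158% of all genes rose and 0.044% fell, and 8 of the 49 had an unadjusted p under 0.05, where 6.38% of all genes did. The lowest adjusted p from limma was 0.195, for Aldh3b2. In wild type, 0 of 49 were at least 2-fold higher (0.563% of all genes) or lower (0.0352%). At 1.5-fold 2 were lower (0.448%). The differences ran from -0.75 for Aldh1l2 to 0.42 for Aldh1a3. Their median was -0.15, with 40 of 49 below 0, where all genes had a median of -0.0047 and 51.4% below 0.

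**Figure D4:**
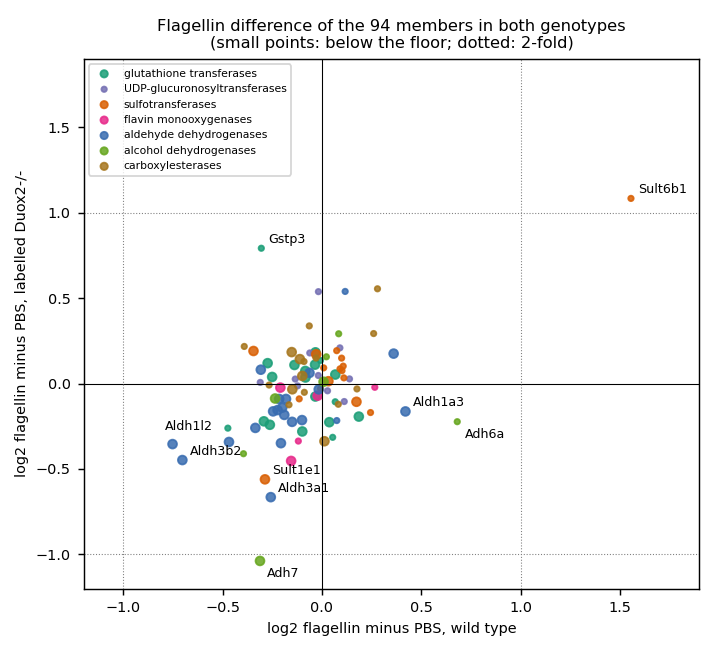
log2 difference between flagellin and PBS, wild type on the x axis and labelled Duox2-/- on the y axis, for all 94 enzyme genes, coloured by family; small points are the 45 genes under the floor and dotted lines mark 2-fold. Most points lie within 2-fold of 0 on both axes, and Sult6b1 lies beyond it on both, at 1.56 and 1.08.

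Aldehyde dehydrogenases had a median of -0.21 in wild type, with 17 of 19 below 0. Aldh1l2, the mitochondrial relative of Aldh1l1, had values of 7.12, 6.37, 6.86 and 6.51, lower after flagellin by -0.75 in wild type and -0.35 in the other genotype. Aldh3b2 had 8.23, 7.53, 7.88 and 7.43, lower by -0.70 and -0.45. For both the PBS arrays lay above the flagellin arrays of either genotype, and neither passed (limma adjusted p = 0.280 and 0.195). Aldh1a1 was lower by -0.47 and -0.34, and Aldh1a7 was higher by 0.36 and 0.18.

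In the arrays labelled Duox2-/-, Adh7 was at least 2-fold lower after flagellin (-1.04, against -0.31 in wild type), as were 0.317% of all genes, and none of the 49 was at least 2-fold higher, as were 0.0967%. At 1.5-fold 2 were lower (2.79%), and after cyclic loess or quantile renormalisation 0 of the 49 were 2-fold lower. Aldh3a1 was next at -0.67, then Sult1e1 at -0.56 and Fmo1 at -0.45, while Sult1c1 at 0.19, Ces1a at 0.18 and Gstm3 at 0.18 were among the highest. The median was -0.09, with 31 of 49 below 0, beside -0.08 and 64.7% over all genes, and after cyclic loess 25 of 49 were below 0.

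Sult6b1, a sulfotransferase, was higher after flagellin in both genotypes, although dim, with values of 3.65, 5.20, 4.33 and 5.42. Its difference was 1.56 in wild type and 1.08 in the other genotype, and without the floor it passed the limma fit over 19938 genes with a rise of 1.32 (SE 0.156, limma adjusted p = 0.0111). Without the floor it was the gene of the 94 at least 2-fold higher after flagellin in each genotype, where 0.838% of 19938 genes were so in wild type and 0.221% in the other genotype. All of its values lay under the floor of 6.52, where the signal over background is not known.

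The difference of the responses, wild type minus Duox2-/-, had a median of -0.07 in the 49 genes and 0.07 over all genes, and 30 of 49 were below 0, beside 38.6% of all genes. None was past 2-fold in either direction, where 0.958% of all genes were above and 0.0791% below. At 1.5-fold 1 was above, Adh7 (4.89%). The difference ran from -0.54 for Sult1c1 to 0.73 for Adh7, and without the floor 1 of 94 was 2-fold below 0, Gstp3 (0.211% of 19938 genes). With 1 array a group this difference is the error of the additive model and could not be tested.

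Genes that feed or surround these enzymes were read from 9 lists, and no gene of them passed for flagellin. For genotype, none rose, and the counts that follow stand beside the 2.60% of all genes that fell. Of the glutathione supply genes 3 of 10 above the floor fell. Slc7a11, the cystine importer, had 7.80, 8.81, 7.27 and 7.62 and fell by 0.86 (limma adjusted p = 0.0288). Gclm, the modifier subunit of the enzyme that starts glutathione synthesis, had 9.27, 9.24, 8.85 and 8.503 and fell by 0.58 (limma adjusted p = 0.0455), and Anpep, a peptidase that helps break glutathione down, fell by 0.52 (limma adjusted p = 0.0498).

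Donor supply for the other conjugations did not pass: 0 of 8 genes of UDP-glucuronic acid supply and 0 of 6 of sulfate donor supply. Of the membrane-bound glutathione transferases 0 of 3 passed. Of 11 other conjugating and hydrolysing enzymes 1 fell, Acsm1, a medium-chain acyl-CoA synthetase, by 1.03 (limma adjusted p = 0.0100), and of 7 transporters 1 fell, Slco1a4, an organic anion importer, by 1.14 (limma adjusted p = 0.0366). Of 11 retinoid genes 2 fell, the retinol and retinal converting enzymes Rdh10 by 0.65 and Dhrs3 by 0.60 (limma adjusted p = 0.0339 and 0.0356).

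Of 12 cytochrome P450 genes and their partners 4 fell. Cyp4a12a fell by 0.87, Cyp4b1 by 0.65, Cyp2b10 by 0.63 and Cyp3a13 by 0.59 (limma adjusted p = 0.0102, 0.0288, 0.0332 and 0.0366). Of 11 regulators 0 passed: Nfe2l2, the factor that binds the antioxidant response element, had 9.42, 9.42, 9.33 and 9.28, and Ahr, the dioxin receptor, had 8.20, 8.24, 8.05 and 7.85.

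Markers of cell types differed between the same arrays, and fewer cells of a type and less RNA per cell cannot be told apart in bulk tissue. The mean of 9 basal and squamous epithelium markers was 7.08, 7.82, 6.57 and 6.21, and 3 of the 6 above the floor fell: Krt5 fell by 1.66, Krt4 fell by 1.41 and Krt14 fell by 1.06. The 11 markers of supporting cells and Bowman glands had means of 9.93, 9.93, 9.66 and 9.70, and 1 of 11, Muc5b, fell by 0.60. Of these 11, 10 were below 0 under PBS (median -0.23) and 8 after flagellin (median -0.35), and 8 had both arrays labelled Duox2-/- below both wild-type arrays. Cyp2g1, a defining gene of these cells, was not among these 8, with 12.10, 12.19, 12.08 and 12.35.

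Olfactory neuron markers had means of 10.2, 10.2, 10.1 and 10.4, with 0 of 12 past the threshold. After flagellin 12 of 12 were higher in the array labelled Duox2-/- (median 0.18), as were 29.9% of all genes. Under PBS 4 of 12 were (median -0.07), as were 39.3% of all genes. Ciliated cell markers had 7.94, 7.77, 7.77 and 7.60 (0 of 9) and macrophage markers 7.48, 7.96, 7.13 and 6.999 (2 of 6 fell, Cd14 and Lyz2). Airway secretory markers had means of 8.63, 8.56, 8.45 and 8.57 over 8 genes, dim ones included. All 5 above the floor had both arrays labelled Duox2-/- below both wild-type arrays, as had 41.6% of all genes. Their median difference was -0.23 under PBS and -0.29 after flagellin, and 1 of the 5 fell, Muc5ac. The dim ones, Scgb1a1, Scgb3a1 and Scgb3a2, were higher in the arrays labelled Duox2-/-. Of all 8566 dim genes, 21.0% were lower there under PBS and 21.7% after flagellin. Nasal gland markers were divided, with means of 6.84, 7.17, 9.36 and 9.53. Of the 6 above the floor 4 rose, Bpifb9a, Bpifb9b, Bpifb5 and Dcpp1, where 1.64% of all genes rose. These 4 lay under the floor in the wild-type PBS array, with 5.47, 6.26, 5.33 and 6.17. Higher values, mostly in the arrays labelled Duox2-/-, brought their means over it. The choice of the 6 thus depends on the difference that is counted. Bpifb9a and Bpifb9b had the largest differences, 6.77 and 6.57 under PBS. The other genes did not pass: Obp1a had 13.19, 13.10, 13.11 and 12.96, and Pip had 10.23, 7.94, 8.94 and 8.49. Skeletal muscle markers had 5.27, 6.66, 7.71 and 5.77 (0 of 4), fibroblast markers 9.698, 9.900, 10.1 and 9.53 (1 of 7 fell, Dpt), endothelial markers 7.60, 7.61, 7.55 and 6.94 (0 of 8) and neutrophil markers 6.54, 7.77, 7.16 and 7.22 (0 of 5). After flagellin 8 of 8 endothelial markers (median -0.70) and 7 of 7 fibroblast markers (median -0.32) were below 0, as were 70.1% of all genes. Under PBS 5 of 8 and 1 of 7 were, beside 60.7% of all genes. Liver markers, which the tissue should lack, had 4.85, 4.96, 5.46 and 5.34, with 0 of 1 above the floor passing. The part of these tissue differences in the lower enzyme values was not tested.

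**Figure D5:**
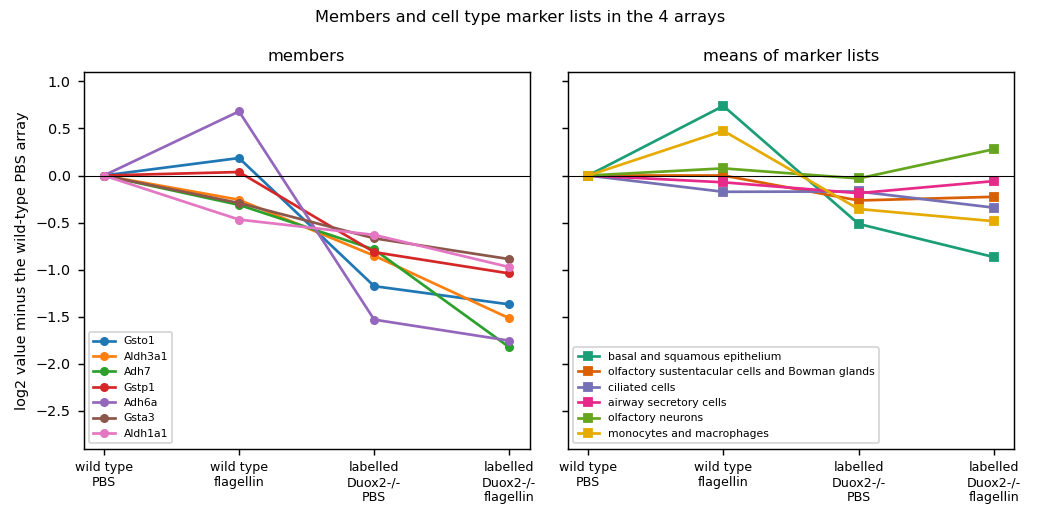
log2 value minus that of the wild-type PBS array (y axis) in the 4 arrays (x axis; lines only join the points of a gene or list) for 7 enzyme genes (left) and the means of 6 marker lists, dim genes included (right). The 7 genes, chosen after their values were seen, end between -0.89 and -1.82 in the array labelled Duox2-/- and given flagellin, where basal and squamous markers end at -0.87 and olfactory neuron markers at 0.28.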

How the data were processed

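RNA of 4 samples, 1 per group, was measured on arrays. The deposited table holds log2 values, judged from their range. RMA and Affymetrix Expression Console 1.1 stand in the submitters' processing notes as the authors' tools. RMA removes background, makes the arrays' distributions alike and summarises the probes of a set. The sources used here do not state the build of the probe sets. Of 35556 probe sets, 21789 name 1 gene, 1621 name several and 12146 name none in the platform annotation; only the first kind gave gene values. All 94 symbols are current in RefSeq.

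Differences of log2 values were counted at 2-fold. The additive model (treatment plus genotype, 1 residual degree of freedom, prior degrees of freedom 8.45, prior SD 0.130) used limma 3.58.1 under R 4.3.3 (lmFit, eBayes, Benjamini-Hochberg over 11372 genes). Tested on simulated data with these gene numbers, the flagellin term found 100 of 100 genes shifted by 1, 100 of 100 shifted by 2 and 10 of 11172 unshifted ones. The simulated noise was independent, had the prior SD for every gene and held no departure from additivity or difference in scaling. The genotype term was not simulated, so these counts check the fitting and not the genotype calls in the 4 arrays. Python 3.11.15 with numpy 2.4.6, pandas 2.3.3 and matplotlib 3.10.9 did the rest.

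Alternatives were median centring, cyclic loess, quantile renormalisation, no floor, a floor on the highest value or at the 60th percentile, the mean of a gene's probe sets, 1.5-fold and a trended robust prior. Named genes were the brightest pair of each family, the 4 highest and 4 lowest of each difference, those past 2-fold and those called; other genes of the families are named as neighbours or near misses. Genes and lists were chosen with earlier results of these data known. The number of arrays limits precision.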

Additional observations from a re-analysis of the deposited data

Results flagged for a closer look

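Gstp3, a pi-class glutathione transferase gene next to Gstp1, had opposite flagellin differences in the genotypes. Its log2 values were 5.90 with PBS and 5.59 with flagellin in wild type, and 5.30 with PBS and 6.09 with flagellin where the label is Duox2-/-, so the difference was -0.31 in wild type and 0.79 in the other genotype. The wild-type response was smaller by a log2 difference of -1.10, and all values lay under the floor. With 1 array a group this difference was not tested.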

How the results depend on the processing

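No paired analysis was possible because each group has 1 array, and leaving out an array leaves no residual degree of freedom. With 1.5-fold in place of 2-fold, 14 of 49 genes were lower by genotype under PBS, 11 after flagellin, 2 were lower with flagellin in each genotype, and 1 was past it upwards in the difference of responses. Cyclic loess left 3 genes that fell by genotype, and with it or quantile renormalisation 0 were 2-fold lower after flagellin in the arrays labelled Duox2-/-. Without the floor, genotype medians were -0.14 under PBS and -0.063 after flagellin, and 2 genes were 2-fold lower under PBS (2 also with the floor on the highest value). Without it 1 was 2-fold higher after flagellin in each genotype, and 1 was 2-fold lower in the difference of responses. In the limma fit without the floor Sult6b1 rose with flagellin. By genotype 15 of 94 fell in that fit and 2 rose, Ces4a and Ces5a, where 2.39% of all 19938 genes fell and 7.03% rose. The 14 genes that fell all did so under 5 alternatives, while quantile renormalisation kept 11 and the floor on the highest value 13. Under those 5, between 2.39% (no floor) and 4.75% (floor at the 60th percentile) of all genes fell. With quantile renormalisation 2.05% fell and 1.85% rose, and with the floor on the highest value 1.98% fell and 2.39% rose. Ces1e, Fmo2 and Gstm2 also fell with median centring, the floor at the 60th percentile and the trended robust prior, which added Adh1 too. No value that a test called changed sign. Dim genes, 45 of 94, carry little signal over background.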

Other observations

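Many of these genes stand next to relatives of the same family, and the neighbours did not all share a direction. Groups were made of genes with at most 2 other measured genes between them, by RefSeq order. Over all 19938 genes, 43.6% were lower in the array labelled Duox2-/- under PBS and 49.3% after flagellin. Of the 7 mu-class glutathione transferase genes of chromosome 3, of which 6 were above the floor, 7 were lower under PBS and 6 after flagellin. In the alcohol dehydrogenase group of the same chromosome 4 of 7 were lower under PBS and 3 after flagellin, and in the theta-class group of chromosome 10 it was 3 of 4 in both treatments. In the Ces1 group of chromosome 8, with Ces5a, 6 of 8 were lower under PBS and 4 after flagellin, and in the group of Ces2, Ces3 and Ces4a genes beside it 4 of 8 and 3 of 8. Of the 8 dim Ugt2 genes of chromosome 5, 0 were lower in either treatment, beside 21.0% and 21.7% of all 8566 dim genes. Neighbouring copies can share probe signal, and these counts were not tested.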
